A study of Mus musculus with 6 samples.

Results

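A group of 7 genes widely described as targets of the miR-17-92 cluster was followed across RNA from macrophages with and without Dicer: Bcl2l11, E2f1, Tgfbr2, Bmpr2, Sirpa, Phlpp1 and Rbl2. They were chosen by name, with earlier results of these data known. Of the 55627 probes kept on the arrays 9 carry these names, for 7 of 34755 genes. Bcl2l11 and Tgfbr2 had 2 probes each and the other 5 genes had 1. Of the 7 genes 5 were well above background on all 6 arrays, as were 12385 of all genes, while Rbl2 was so on 4 arrays and Phlpp1 on 1.

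The study set 6 groups of 1 array each: AGO2-RIP, IgG-RIP and input RNA from Dicer KO macrophages, and the same 3 fractions from Dicer WT macrophages. KO cells came from LysM-Cre/Dicerflox/flox/Apoe–/– mice and WT cells from LysM-Cre/Dicerwt/wt/Apoe–/– mice, so Cre under the LysM promoter of myeloid cells and the loss of Apoe were common to both genotypes. Bone marrow of male mice aged 6 to 8 weeks was cultured for 7 days with L929-conditioned medium. Input is RNA of the cleared lysate, and the RIP fractions are RNA recovered after 7 hours on beads with a monoclonal antibody to AGO2 or with control IgG.

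Dicer cuts miRNA precursors into mature miRNAs, which are loaded into Argonaute proteins such as AGO2. A loaded miRNA guides Argonaute to transcripts that match its seed, the bases near its 5′ end, and these transcripts are repressed or degraded. The miR-17-92 cluster is a polycistron known for promoting proliferation and survival in blood cells, in part by repressing the proapoptotic gene Bcl2l11, and its members have also been linked to E2F, TGF-beta and AKT signalling. In myeloid cells its members were described to repress Sirpa, an inhibitory receptor of macrophages.

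The 6 miRNAs of the cluster hold only 4 seeds, and matches to these were searched for in the probes alone, not in whole transcripts. The mature sequences are given 5′ to 3′ from RefSeq (GRCm38.p6, chromosome 14, plus strand), with the seed, bases 2 to 8, in capitals.
miR-17-5p: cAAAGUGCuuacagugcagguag
miR-20a-5p: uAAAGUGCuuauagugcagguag
miR-18a-5p: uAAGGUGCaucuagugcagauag
miR-19a-3p: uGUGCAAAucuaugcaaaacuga
miR-19b-3p: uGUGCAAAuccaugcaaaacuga
miR-92a-3p: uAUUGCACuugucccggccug
miR-17-5p at chr14:115043684-115043706 and miR-20a-5p at chr14:115044183-115044205 share a seed and differ at 2 of 23 bases. miR-19a-3p and miR-19b-3p share another and differ at 1 base. The seeds of miR-18a-5p and miR-92a-3p each stand alone.

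The probes decide which part of a transcript was read, and 3 probe stretches matter for the genes with 2 probes. The brighter Bcl2l11 probe (transcript NM_207680, mm9 chr2:127972893-127983988) spans an intron, because its 60 bases cover 11096 bases of the genome, and it lies in the coding sequence at the BH3 domain. The other Bcl2l11 probe (transcript variant NM_001284410, mm9 chr2:127954736-127955417) holds GTGCAAT, the match to the miR-92a-3p seed, shown in capitals within its first 30 bases. The other, dimmer Tgfbr2 probe (transcript NM_009371, mm9 chr9:115999496-115999555, minus strand) ends with the stop codon, in capitals.
Bcl2l11, brighter probe: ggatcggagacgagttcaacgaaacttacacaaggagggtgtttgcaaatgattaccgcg
Bcl2l11, other probe: atctcaGTGCAATggatcagttggagaatc
Tgfbr2, other probe: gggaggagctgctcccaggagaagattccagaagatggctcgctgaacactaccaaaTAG
GTGCAAT stood in 0.295% of all probes read as printed and in 0.539% on either strand. The match to the seed of miR-17-5p and miR-20a-5p, GCACTTT, stood in 0.387% of all probes as printed (0.929% on either strand). That of miR-18a-5p, GCACCTT, stood in 0.347% (0.645%). That of the miR-19 pair, TTTGCAC, stood in 0.455% (0.866%). These 3 stood in 0 of the 9 probes on either strand, and none of the 4 motifs contains another. A match in a probe is only a description of its letters. The brighter Tgfbr2 probe (mm9 chr9:115997155-115997214) lies 2281 bases further downstream in the same transcript, past the stop codon. The probes of Sirpa (mm9 chr2:129457873-129457932), E2f1 (chr2:154385798-154385857, minus strand), Bmpr2 (chr1:59927276-59927335), Phlpp1 (chr1:108290330-108290389) and Rbl2 (chr8:93647120-93647179) are given by position only.

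Levels are log2 of the processed signal relative to the array's 75th percentile, and a difference is a plain subtraction of levels. Each group is a single array, so nothing repeats a difference between groups. The ± beside a difference is the scanner software's own spot error, which leaves out culture, precipitation and amplification, and past 2-fold describes a size, without any test. Where a probe was not well above background on 1 array, "at least" gives a bound against the higher of its own signal and the dimmest spot well above background there. The spot error is not part of such a bound, so the difference can be smaller than the bound within that error. Levels of different probes are not compared.

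Across the series, 37.6% to 46.3% of 59305 spots were well above background on an array, and probes spotted 10 times scattered by 0.15 to 0.18 log2 (SD, root mean square over probes). Of 9 macrophage markers 8 were above background on both inputs, against 4 of 37 markers of other cell types (S100a8, S100a9, Cd4 and Pf4). The remaining macrophage marker, the LysM gene Lyz2, was well above background on KO input but not on WT input, for a reason that was not tested. The summed level of the macrophage list ran from 9.78 to 10.32 on the KO arrays and from 9.92 to 10.44 on the WT arrays. Dicer1 was at -0.55 in KO input and 0.22 in WT input, and the deleted exons are not given in the labels, so its probe checks nothing. The Y-linked genes Ddx3y and Eif2s3y exceeded background on 3 of 3 KO and 0 of 3 WT arrays and Xist on 0 of 3 KO and 3 of 3 WT arrays, which goes against the label of male mice for WT. Sex, slide row and genotype therefore cannot be told apart in any difference between KO and WT. Nor can fraction and position within the slide row, which was the same for a fraction in both genotypes.

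**Figure D1:**
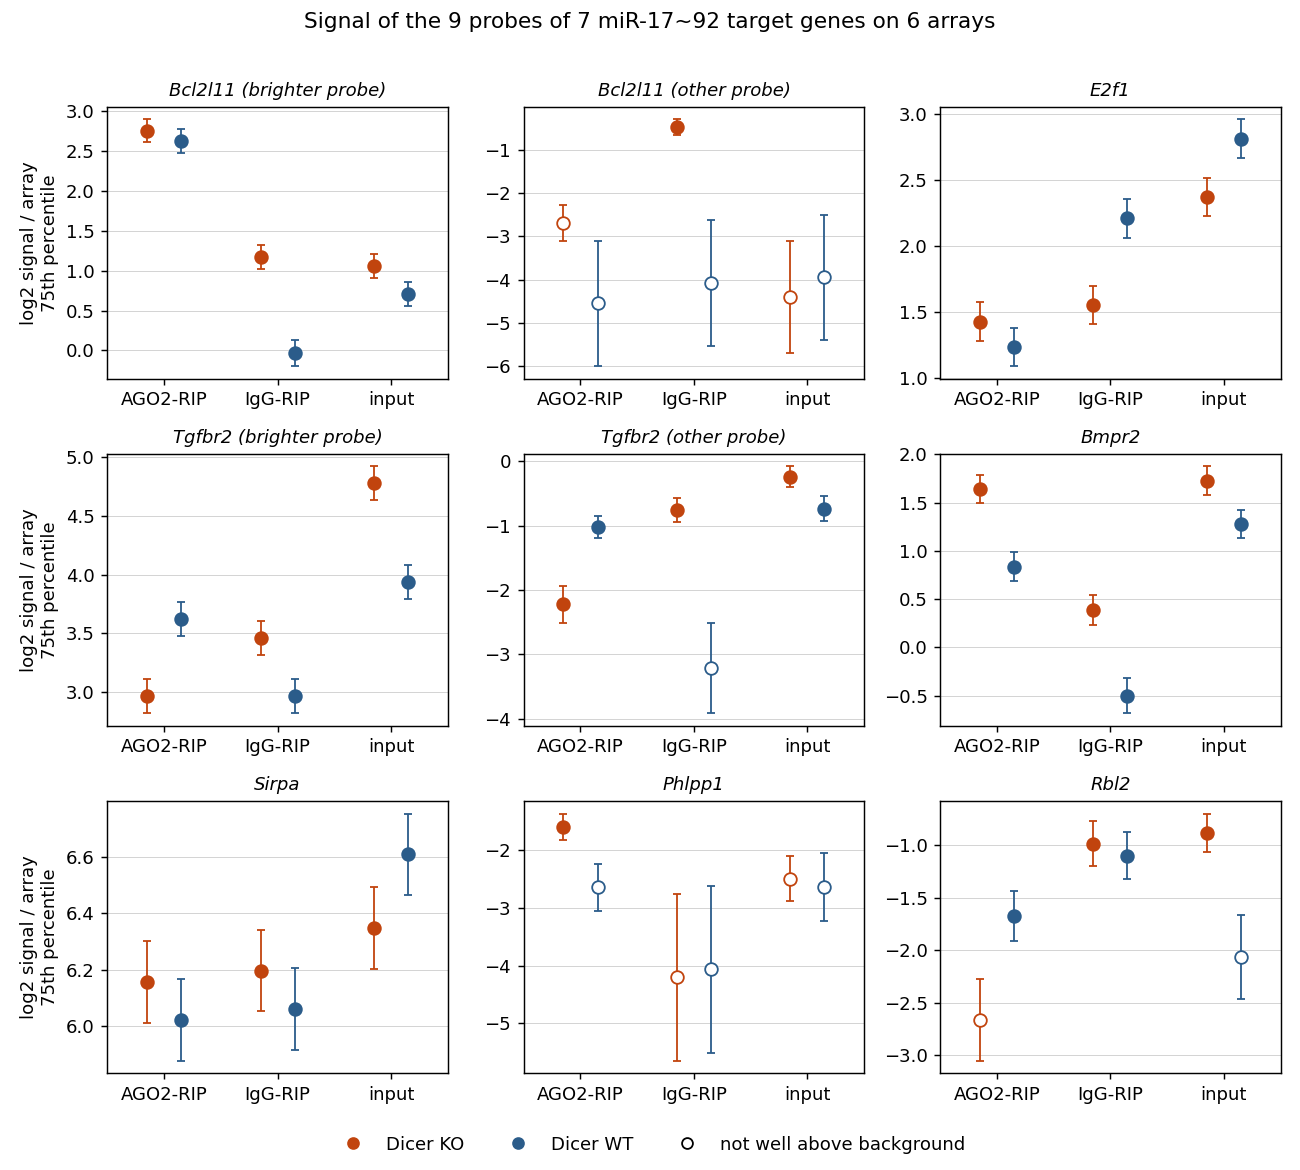
Log2 signal relative to each array's 75th percentile for the 9 probes (panels), with the fraction on the x axis, Dicer KO left of Dicer WT, 1 point per array. Bars are the software's spot error and open points are not well above background; Bcl2l11 (brighter probe) was highest on both AGO2-RIP arrays, at 2.75 in KO and 2.62 in WT.

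Bcl2l11 encodes BIM, a BH3-only protein that triggers apoptosis by binding BCL2-type survival proteins, and of the members measured it was the one higher in AGO2-RIP than in both IgG-RIP and input, in both genotypes. Its brighter probe stood at 2.75 in KO AGO2-RIP, against 1.17 in KO IgG-RIP and 1.06 in KO input. In WT it stood at 2.62 in AGO2-RIP, against -0.03 in IgG-RIP and 0.71 in input. Both AGO2-RIP arrays were thus above all 4 other arrays, and the AGO2-RIP levels of the genotypes differed by 0.13 ± 0.20 (KO minus WT), within the spot error. Over IgG-RIP the difference was 1.58 ± 0.21 in KO (2.98-fold) and 2.65 ± 0.22 in WT (6.29-fold), and with the median of both probes the KO difference turned to -0.31. Over input it was 1.69 ± 0.21 in KO (3.23-fold) and 1.92 ± 0.21 in WT (3.77-fold), and with the median of both probes the WT value was 0.66, short of 2-fold.

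The genotypes parted on the control side for this gene. KO minus WT of the AGO2-RIP over IgG-RIP difference was -1.08 ± 0.30, which went with the IgG-RIP level of 1.17 in KO against -0.03 in WT. KO minus WT of the difference over input was -0.23 ± 0.30, within the spot error. It was 0.09 with quantile normalization and 1.04 with the median of both probes, past 2-fold in the opposite direction. In the distribution of all genes, 95.6% lay below the Bcl2l11 value over IgG-RIP in KO and 96.2% in WT.

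A test across both genotypes was run with limma on all 6 arrays (terms for fraction and for genotype, two-sided, p adjusted by Benjamini-Hochberg over 18888 genes), in which the arrays of the genotypes stand in for replicates and the genotype-dependent part of an enrichment counts as error. Bcl2l11 averaged 2.11 above IgG-RIP (95% confidence interval 0.99 to 3.24, higher in both genotypes) with an adjusted limma p of 0.116, and 0.0274 to 0.741 over the alternative settings. Over input it averaged 1.80 (interval 0.68 to 2.92, higher in both genotypes) with an adjusted limma p of 0.0601, and 0.0133 to 0.272 over the settings. Neither passed the threshold of 0.05, and some alternative settings did. Over IgG-RIP limma called 0 of 18888 genes (0%), with 3554 at an unadjusted p under 0.05. With an intensity-trended robust prior it called 362 higher and 16 lower, and the counts of the other settings stand with the alternatives.

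The other Bcl2l11 probe, of the variant transcript, behaved differently. It was well above background only in KO IgG-RIP, at -0.48. On the KO AGO2-RIP and KO input arrays it was at -2.68 and -4.40, and on the WT AGO2-RIP, IgG-RIP and input arrays at -4.55, -4.08 and -3.94, all not well above background. That makes KO AGO2-RIP at least 4.18-fold lower than KO IgG-RIP for this probe, opposite to the brighter one.

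Among 14 other genes of the BCL2 family, 10 were measured over IgG-RIP in each genotype. In KO 4 exceeded IgG-RIP by 2-fold (10.5% of 15650 genes did) and 1 fell short of it by 2-fold (9.92% of genes). In WT 5 were at least 2-fold higher (20.3% of 15216 genes) and 0 lower (22.2% of genes). The list's median was 0.63 in KO and 1.32 in WT, with -0.19 and -0.24 over all genes. Bbc3, which encodes the BH3-only protein PUMA, was highest in both, at 3.59 in KO and 4.35 in WT, followed by the survival genes Bcl2l2 in KO (1.86) and Mcl1 in WT (2.25). Bcl2 itself was lowest in both, at -1.02 in KO and -0.36 in WT, next to the BH3-only genes Bid in KO (-0.39) and Bad in WT (-0.23).

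**Figure D2:**
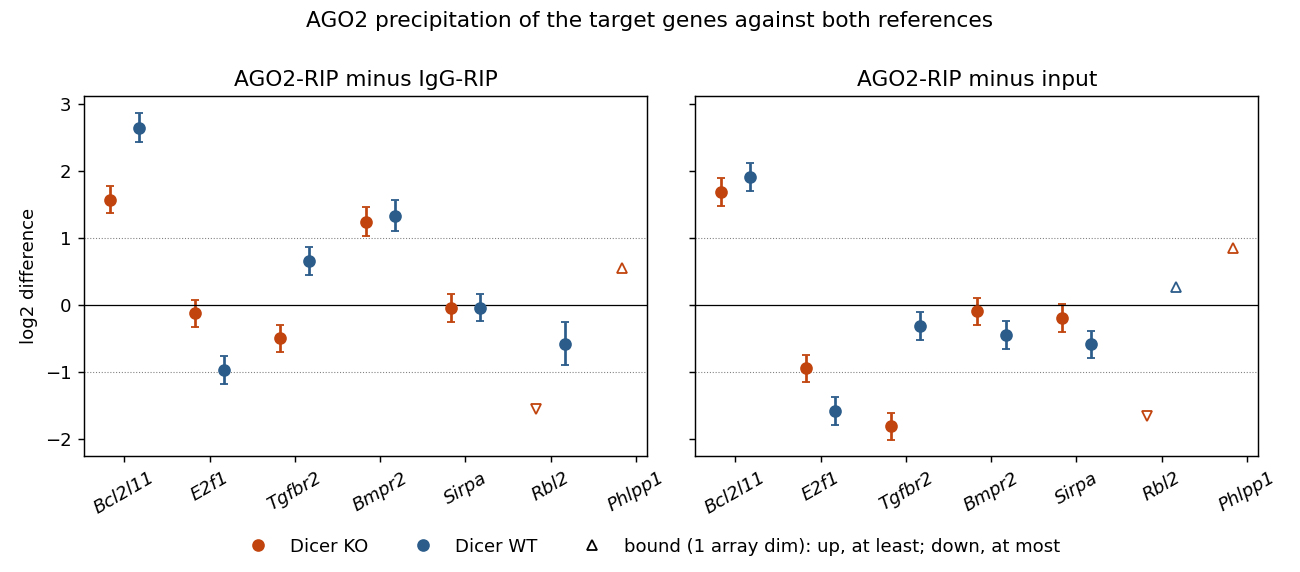
Log2 differences of AGO2-RIP minus IgG-RIP (left) and minus input (right) for each of the 7 genes (x axis, brighter probe), with Dicer KO left of Dicer WT, 1 value per genotype and spot errors as bars. Open triangles are bounds; Bcl2l11 is above 1 in all 4 values, Bmpr2 only against IgG-RIP (1.25 in KO, 1.34 in WT), and Tgfbr2 has opposite signs against IgG-RIP.

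The receptor genes Tgfbr2 and Bmpr2 encode the type II receptors that bind TGF-beta and BMP ligands and phosphorylate type I receptors. Tgfbr2 was on opposite sides of IgG-RIP in the genotypes, and Bmpr2 was above IgG-RIP by a similar amount in both. The brighter Tgfbr2 probe stood at 2.97 in KO AGO2-RIP, against 3.46 in KO IgG-RIP and 4.78 in KO input. In WT it stood at 3.62 in AGO2-RIP, against 2.96 in IgG-RIP and 3.93 in input. The KO AGO2-RIP array was the lowest of the KO fractions, while the WT AGO2-RIP array lay between the other WT fractions.

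AGO2-RIP minus IgG-RIP was -0.50 ± 0.20 in KO and 0.66 ± 0.20 in WT for this probe, and KO minus WT of these differences was -1.15 ± 0.29. Over input the difference was -1.81 ± 0.20 in KO (3.50-fold lower) and -0.31 ± 0.20 in WT (0.15 with quantile normalization), and KO minus WT was -1.50 ± 0.29. The KO minus WT value over input was among the low ones, with 4.14% of 13868 genes below it.

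The Tgfbr2 probe at the stop codon gave the same signs. It stood at -2.22 in KO AGO2-RIP, against -0.75 in KO IgG-RIP and -0.24 in KO input. In WT it stood at -1.02 in AGO2-RIP and -0.74 in input, and at -3.21 in IgG-RIP, not well above background. AGO2-RIP minus IgG-RIP was -1.47 ± 0.34 in KO, and in WT AGO2-RIP was at least 2.01-fold higher than IgG-RIP. Over input KO minus WT was -1.70 ± 0.42, close to the value of the brighter probe. These probes share a transcript and are not replicates.

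Bmpr2 stood at 1.64 in KO AGO2-RIP, against 0.39 in KO IgG-RIP and 1.73 in KO input. The WT levels were 0.84 in AGO2-RIP, against -0.50 in IgG-RIP and 1.28 in input. In each genotype the IgG-RIP array was the low one. AGO2-RIP minus IgG-RIP was 1.25 ± 0.21 in KO (2.37-fold) and 1.34 ± 0.24 in WT (2.53-fold), and KO minus WT was -0.09 ± 0.32 (0.21 with normexp). Over input the differences were -0.09 ± 0.21 in KO, within the spot error (0.22 with quantile normalization and 0.01 with normexp), and -0.44 ± 0.21 in WT. The IgG-RIP level was 1.34 below input in KO and 1.78 below it in WT. In limma, Bmpr2 averaged 1.29 over IgG-RIP (interval 0.33 to 2.26, higher in both genotypes) with an adjusted p of 0.189, and 0.0820 to 0.217 over the settings.

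Thus 2 of the 5 members measured in KO, Bcl2l11 and Bmpr2, exceeded IgG-RIP by 2-fold or more in AGO2-RIP, beside 10.5% of genes, as did the same 2 of 6 measured in WT, beside 20.3% of genes. Of these measured members 0 were lower by that size in either genotype, beside 9.92% of genes in KO and 22.2% in WT, while Rbl2, which has only a bound in KO, was at least 2.94-fold lower there. Over input 1 of 5 was higher in each genotype, Bcl2l11 in both, where 14.6% of genes in KO and 14.8% in WT were. Lower over input was 1 of 5 measured, Tgfbr2 in KO and E2f1 in WT, where 26.4% of genes were in each genotype, and the Rbl2 bound in KO was at least 3.16-fold lower.

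Of 31 other TGF-beta and BMP pathway genes, 16 were measured over IgG-RIP in KO, with 3 at least 2-fold higher and 2 lower (10.5% and 9.92% of all genes), and 15 in WT, with 10 higher and 0 lower (20.3% and 22.2%). Their median was 0.23 in KO and 1.30 in WT, and the KO median turned to -0.34 with no filter on dim probes. In KO the inhibitory Smad7 (1.95) was highest, and the BMP mediator Smad1 (-1.63) and the ubiquitin ligase gene Smurf1 (-1.56) lowest. In WT Tgfbr1 (3.25), the type I partner of TGFBR2, and Smurf2 (3.14) were highest, and the endothelial receptor genes Eng (-0.89) and Acvrl1 (-0.83) lowest.

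The cell cycle members are E2f1, a transcription factor that drives S-phase genes, and Rbl2, which encodes p130, a pocket protein that holds E2F complexes repressive. E2f1 was lower in AGO2-RIP than in input in both genotypes. It stood at 1.43 in KO AGO2-RIP, against 1.55 in KO IgG-RIP and 2.37 in KO input. The WT levels were 1.24 in AGO2-RIP, against 2.21 in IgG-RIP and 2.81 in input. Both AGO2-RIP levels were below all 4 other arrays.

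AGO2-RIP minus input was -0.94 ± 0.21 for E2f1 in KO and -1.58 ± 0.21 in WT. Minus IgG-RIP it was -0.12 ± 0.21 in KO, within the spot error, and -0.97 ± 0.21 in WT. In limma the average over input was -1.26 (interval -2.31 to -0.21, lower in both genotypes) with an adjusted p of 0.104, and 0.0391 to 0.231 over the settings. Over input limma called 844 of 18888 genes higher (4.47%) and 1090 lower (5.77%), and 0 of the 6 members tested.

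Rbl2 was near background. It stood at -2.66 in KO AGO2-RIP, not well above background, against -0.99 in KO IgG-RIP and -0.88 in KO input. The WT levels were -1.67 in AGO2-RIP, -1.10 in IgG-RIP and, not well above background, -2.07 in input. In KO, AGO2-RIP was at least 2.94-fold lower than IgG-RIP and at least 3.16-fold lower than input. In WT, AGO2-RIP minus IgG-RIP was -0.57 ± 0.33, and AGO2-RIP was at least 1.20-fold higher than input. The spot errors of 16.4% on WT AGO2-RIP and 27.7% on WT input could span that last difference.

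Of 23 other E2F, pocket protein and cyclin genes, 19 were measured over IgG-RIP in KO, with 4 at least 2-fold higher and 2 lower (10.5% and 9.92% of all genes), and 18 in WT, with 13 higher and 0 lower (20.3% and 22.2%). Their median was 0.20 in KO and 1.67 in WT, with -0.19 and -0.24 over all genes. In KO the D-type cyclin gene Ccnd3 (3.44) and E2f3 (2.22) were highest, and the kinase gene Cdk2 (-2.38) and the atypical repressor E2f7 (-1.53) lowest. In WT the E-type cyclin gene Ccne1 (4.27) and Ccnd3 (3.83) were highest, with E2f8 (0.57) among the lowest. The E2f1 values on the same scale, -0.12 in KO and -0.97 in WT, are below these medians.

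Phlpp1 encodes a phosphatase that removes an activating phosphate from AKT. Its probe was well above background only in KO AGO2-RIP, at -1.59. The levels in KO IgG-RIP and KO input were -4.20 and -2.49, and those in WT AGO2-RIP, IgG-RIP and input -2.64, -4.06 and -2.64, all not well above background. In KO, AGO2-RIP was at least 1.47-fold higher than IgG-RIP and at least 1.80-fold higher than input, and KO AGO2-RIP was at least 2.04-fold higher than WT AGO2-RIP. The spot errors were 15.9% on KO AGO2-RIP, 27.5% on KO input and 28.6% on WT AGO2-RIP. Within them the last difference could lie below 2-fold. No WT difference can be given.

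Of 17 other genes of AKT signalling, 14 were measured over IgG-RIP in each genotype, with 1 at least 2-fold higher and 1 lower in KO (10.5% and 9.92% of all genes) and 1 higher and 0 lower in WT (20.3% and 22.2%). Their median was -0.15 in KO and 0.05 in WT (-0.20 with quantile normalization), with -0.19 and -0.24 over all genes. The lipid phosphatase gene Inpp4b (1.67) was highest in KO and the regulatory subunit gene Pik3r1 (-1.49) lowest. In WT Pik3ca (-0.47), a catalytic subunit of PI3-kinase, was lowest.

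Sirpa encodes the receptor through which CD47 on other cells restrains phagocytosis, and its signal differed little between fractions. It stood at 6.16 in KO AGO2-RIP, against 6.20 in KO IgG-RIP and 6.35 in KO input. WT cells gave 6.02 in AGO2-RIP, against 6.06 in IgG-RIP and 6.61 in input. The 6 levels spanned less than the distance between the AGO2-RIP and IgG-RIP arrays of Bcl2l11 in either genotype. AGO2-RIP minus IgG-RIP was -0.04 ± 0.20 in KO and -0.04 ± 0.20 in WT, and minus input it was -0.19 ± 0.20 in KO and -0.59 ± 0.20 in WT. These signs turned with the scaling: over IgG-RIP to 0.04 in KO with quantile normalization and 0.26 in WT with median centring, and over input to 0.64 in KO and 0.30 in WT with quantile normalization. Genes of the Sirp family are similar in sequence and may share this probe's signal.

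In limma the Sirpa average over IgG-RIP was -0.04 (95% confidence interval -1.005 to 0.926, lower in both genotypes but within the spot error). Its adjusted limma p was 0.957, and 0.619 to 0.959 over the settings. Of 9 genes around SIRPA and CD47, 8 were measured in KO over IgG-RIP, with 0 at least 2-fold higher and 2 lower, the phosphatase gene Ptpn11 (-1.32) and the adaptor gene Fyb (-1.20). In WT 9 were measured, with 2 higher, the phosphatase gene Ptpn6 (1.39) and Sirpb1b (1.03), and 1 lower, Lrp1 (-1.12), a scavenger receptor. Of all genes 10.5% were higher and 9.92% lower by 2-fold in KO, and 20.3% and 22.2% in WT. Cd47 was at 0.19 in KO and -0.87 in WT.

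In input RNA, which gives the level of the targets themselves on 1 array per genotype, 3 of the 5 measured members were higher in KO and 2 lower. Of these members 0 passed 2-fold, which 1.02% of 14664 genes did upward and 1.73% downward. KO minus WT was 0.84 ± 0.20 for Tgfbr2, 0.45 ± 0.21 for Bmpr2 and 0.35 ± 0.21 for Bcl2l11. It was -0.26 ± 0.20 for Sirpa (0.08 with quantile normalization) and -0.44 ± 0.20 for E2f1. The other Tgfbr2 probe gave 0.50 ± 0.25. Rbl2 was at least 2.08-fold higher in KO input, against a WT array on which it was not well above background. With spot errors of 12.8% on KO input and 27.7% on WT input, that difference could lie below 2-fold.

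The median over the 5 was 0.35, and that of all genes -0.08. Tgfbr2 lay above 97.9% of the genes, Bmpr2 above 90.3% and Bcl2l11 above 86.0%, and E2f1 above 17.2%. With the median of probes Bcl2l11 was at -0.05. Of the related lists, the BCL2 family had a KO minus WT input median of -0.29 over 10 genes, the E2F and pocket protein list -0.19 over 21, the TGF-beta and BMP list -0.08 over 16 and the AKT list 0.14 over 14, with 0 genes past 2-fold in each. In bulk RNA, fewer cells of a type and less RNA per cell cannot be told apart. Of 8 neutrophil markers 6 were not well above background on either input, and KO minus WT input of the other 2, S100a8 and S100a9, was between -1.42 and -0.23. The summed level of that list was 0.11 in KO input and 0.81 in WT input, and its part in these differences was not tested.

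**Figure D3:**
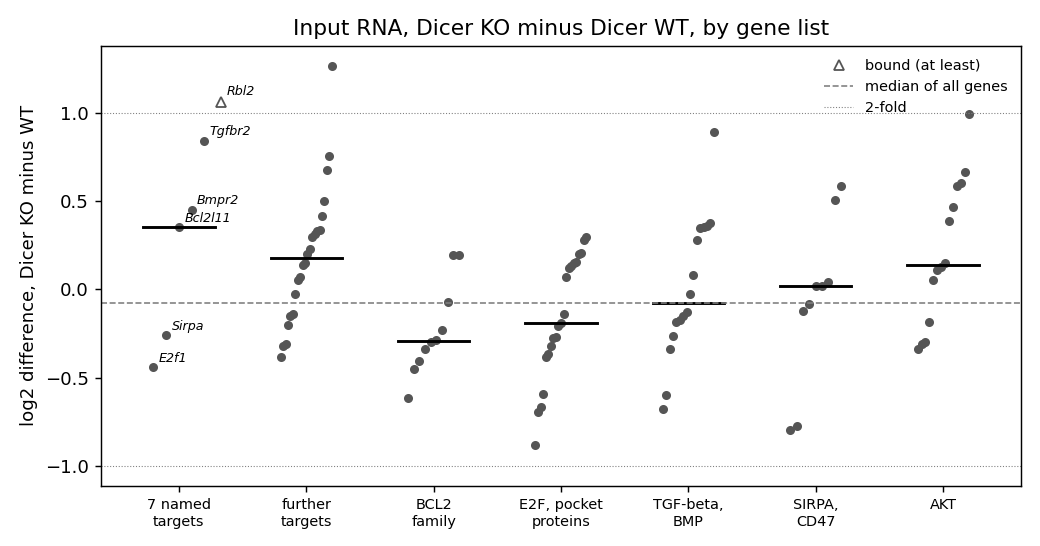
Log2 difference of input RNA, Dicer KO minus Dicer WT (y axis), with 1 point per measured gene for each list (x axis, points in order of value), bars at list medians and a dashed line at the median of all genes. Of the named targets Tgfbr2 (0.84), Bmpr2 (0.45) and Bcl2l11 (0.35) lie above 0, the open triangle is the Rbl2 bound, and Abca1 (1.26) tops the further targets.

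A further 29 genes described elsewhere as targets of the cluster gave a wider frame. This list, like the others, was chosen with earlier results of these data known. Its counts beside the shares of all genes are therefore descriptions and not a test of cluster targets. Of these 22 were measured over IgG-RIP in KO, with 6 at least 2-fold higher and 0 lower (10.5% and 9.92% of genes), and 23 in WT, with 18 higher and 0 lower (20.3% and 22.2%). Their median was 0.31 in KO and 1.54 in WT. In KO E2f3 (2.22) and the transcription factor gene Klf2 (1.74) were highest, and the thrombospondin gene Thbs1 (-0.66) and Stat3 (-0.46) lowest. In WT the integrin gene Itga5 (3.87) and Cdkn1a (3.34), whose product p21 arrests the cell cycle, were highest, and Zbtb4 (0.08) and Stat3 (0.34) lowest.

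Over input 25 of the 29 were measured in KO, with 4 at least 2-fold higher and 1 lower (14.6% and 26.4% of genes) and a median of 0.08. In WT 22 were measured, with 8 higher and 0 lower (14.8% and 26.4% of genes) and a median of 0.87. The median of all genes over input was -0.24 in each genotype. KO minus WT of the difference over IgG-RIP had a median of -1.13 over 21 genes, with 0 at least 2-fold higher and 11 lower, against 16.5% and 20.2% of 14055 genes. KO minus WT of the difference over input had a median of -0.85 over 22 genes, with 0 higher and 8 lower, against 6.98% and 11.6% of 13868 genes. For the 5 members the same medians were -0.09 and 0.35, with 0 higher and 2 lower over IgG-RIP (Bcl2l11 and Tgfbr2) and 0 higher and 1 lower over input (Tgfbr2). A lower KO value was not particular to the further targets, whose median over IgG-RIP ran from -1.45 to -0.78 over 7 settings. It ran from -1.83 to -1.18 for the E2F and pocket protein list and from -1.65 to -0.05 for the TGF-beta and BMP list. For the BCL2 family it ran from -0.84 to -0.25, and for the AKT list from -0.56 to 0.09. In input RNA the 22 further targets measured had a KO minus WT median of 0.17. Of these 1 was at least 2-fold higher, the cholesterol exporter gene Abca1 (1.26), and 0 lower, against 1.02% and 1.73% of genes.

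**Figure D4:**
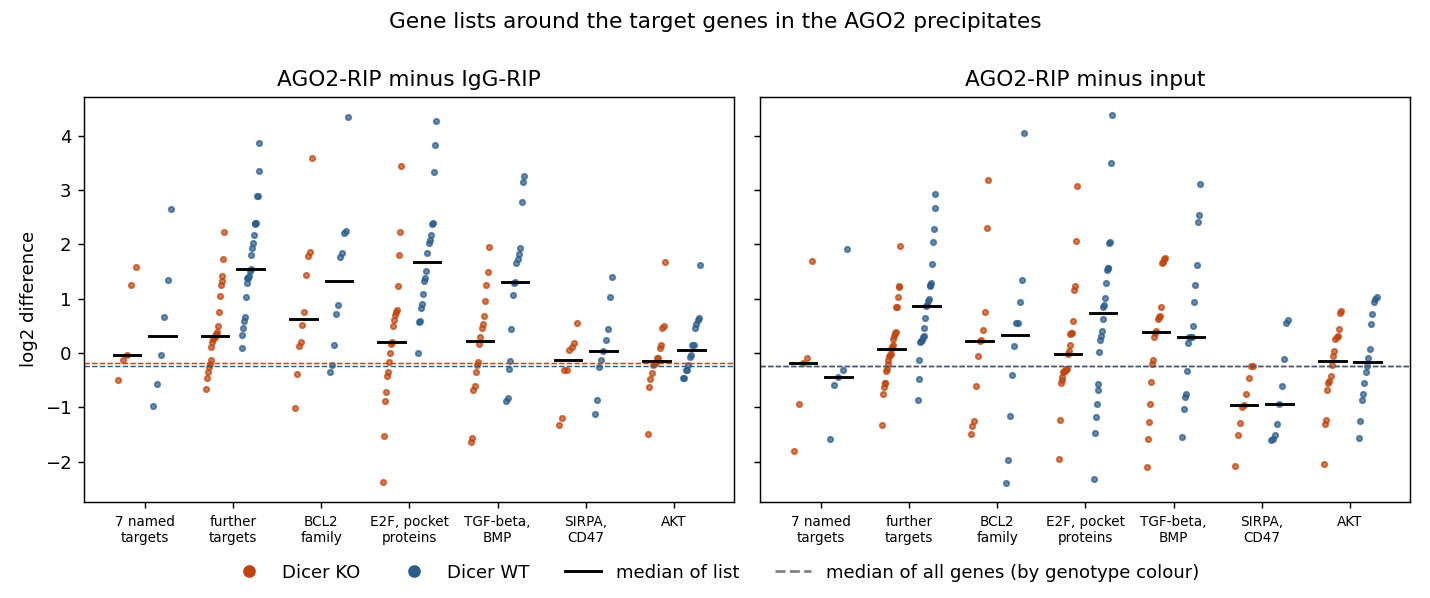
Log2 differences of AGO2-RIP minus IgG-RIP (left) and minus input (right) for measured genes of each list (x axis), with Dicer KO left of Dicer WT, black bars at list medians and dashed lines at the median of all genes in each genotype. Against IgG-RIP the further targets have a median of 0.31 in KO and 1.54 in WT, while the named targets have -0.04 over the 5 measured in KO and 0.31 over the 6 measured in WT.

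Mir17hg, the transcript that carries the cluster, was measured by 1 probe. Its levels were -0.78 in KO AGO2-RIP, 0.19 in KO IgG-RIP, -1.44 in WT AGO2-RIP and -1.90 in WT IgG-RIP. It was not well above background on either input array (-4.72 in KO and -3.69 in WT). The mature miRNAs themselves were not analysed here.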

How the data were processed

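Per the labels' protocols, cDNA was made from each RNA and pre-amplified, and equal amounts (500 ng) were labelled with Cy3 by random priming, so the yield of a precipitation was not kept. The deposited values are intensities from Agilent Feature Extraction 10.7.3.1 per the submitters' processing notes. Per the file headers they were background-subtracted, with probe coordinates on mm9. All 6 arrays lay on 1 slide with 1 scan, KO in row 1 and WT in row 2. In each row the second position number was 2 for input, 3 for IgG-RIP and 4 for AGO2-RIP.

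Levels are log2 processed intensities after subtraction of the 75th percentile over 59305 non-control spots. Flagged spots were left out, with 54 probes lost, spots of a probe were averaged, and the probe with the highest mean signal stood for a gene. Of 55627 probes, 27634 were named by accession, 3399 by symbol and 320 by synonym through RefSeq (GRCm38.p6), and 24274 kept the array's name. A gene counts as measured if all arrays of a comparison had it well above background. limma 3.58.1 in R 4.3.3 took genes that passed background on 2 or more arrays, after a test on simulated data. Python 3.11.15, numpy 2.4.6 and pandas 2.3.3 did the rest. The labels do not tell whether samples are separate animals, and p-values measure the spread between these arrays only.

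The members and lists were chosen with earlier results of these data known. Named genes are all members with every probe, and up to 2 of the highest and lowest measured genes of each list. Of the genes so named, 1 is not reported here. Alternatives were median centring, quantile normalization, normexp (offset 50), the median of a gene's probes, other filters on dim probes, a 1.5-fold threshold and a trended robust prior.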

Additional observations from a re-analysis of the deposited data

Results flagged for a closer look

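Tgfbr2 was on opposite sides of IgG-RIP in the genotypes with both probes: the brighter probe gave -0.50 in KO and 0.66 in WT, and the other probe -1.47 in KO and a bound of 1.01 in WT. Rbl2 was on opposite sides of input, with bounds of -1.66 in KO and 0.27 in WT. The WT bound is small enough to lie within the spot error, which was 16.4% of the signal on WT AGO2-RIP and 27.7% on WT input. With 1 array per group these differences between genotypes were not tested. On the KO AGO2-RIP and WT input arrays Rbl2 was not well above background.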

How the results depend on the processing

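No paired analysis was possible because each group holds 1 array and the labels give no replicate numbers, so no replicate could be left out either. The genotype term in limma sets the fractions of a genotype side by side, as a block of genotype and not of replicates. The one value past 2-fold that changed sign was Bcl2l11 over IgG-RIP in KO, at -0.31 with the median of probes, a setting that averages in its dim probe. It was 1.37 with normexp and 1.71 with quantile normalization. In limma 1 member was called over IgG-RIP with normexp and with genes above background on all 6 arrays (Bcl2l11, adjusted p 0.0486 and 0.0274). Over input 2 were called in each of these settings (Bcl2l11 and E2f1) and 1 with the trended robust prior (Bcl2l11). Over IgG-RIP limma called 248 genes higher and 15 lower with normexp, 538 and 40 with genes above background on all 6 arrays, and 0 with median centring, quantile normalization, the median of probes or no filter. Over input it called 0 with quantile normalization, 1208 higher and 2432 lower with normexp, 605 and 1990 with median centring, 693 and 1054 with the median of probes, 1127 and 2584 with genes above background on all 6 arrays, 1403 and 2188 with the trended robust prior, and 444 and 584 with no filter. Counts of members past 2-fold moved as follows, where a change between nonzero counts by a factor of 1.5 or less is left out. Over IgG-RIP in KO, higher became 1 with normexp and the median of probes, and lower 1 with no filter. In WT, higher became 1 with normexp, and lower 1 with quantile normalization and at 1.5-fold. Over input in KO, lower became 2 with median centring, no filter and at 1.5-fold. In WT, higher became 0 with the median of probes, and lower 2 at 1.5-fold. For IgG-RIP over input in KO, lower became 1 with quantile normalization, normexp and the median of probes, and higher 1 with the median of probes. In WT, lower became 5 with median centring, 0 with normexp, 2 with the median of probes and no filter, and 4 at 1.5-fold. For KO minus WT input, higher became 1 with no filter and at 1.5-fold. For KO minus WT over IgG-RIP, higher became 1 with quantile normalization, no filter and at 1.5-fold, and lower 0 with quantile normalization and 1 with normexp. For KO minus WT over input, higher became 1 with the median of probes and at 1.5-fold, and lower 2 with no filter. Where no construction shows it, the cause was not tested. The median of all genes over IgG-RIP in WT was 0.06 with median centring and -0.24 as reported, and over input in KO -0.74 and -0.24.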

Other observations

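The genes whose 6-array pattern lay nearest to a member's, after each gene's own mean was removed, were Zswim6 and Sdad1 for Bcl2l11, at a root mean square distance of 0.132 and 0.172 log2. For E2f1 they were Lemd2 (0.114) and Ncf4 (0.124), for Tgfbr2 Tmbim6 (0.189) and Stk10 (0.191), for Bmpr2 Rdx (0.137) and Mtpap (0.178), and for Sirpa Zzz3 (0.0572) followed by Med15. Each distance covers 6 arrays.

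Control IgG-RIP differed from input for some members. Bmpr2 was 2.53-fold lower in KO IgG-RIP and 3.43-fold lower in WT IgG-RIP than in input of the same genotype. The brighter Tgfbr2 probe was 2.49-fold lower in KO. The other Tgfbr2 probe was 1.43-fold lower in KO and at least 2.45-fold lower in WT. The other Bcl2l11 probe was at least 3.89-fold higher in KO IgG-RIP than in KO input. By brighter or only probe, 0 of 6 members measured in KO were at least 2-fold higher in IgG-RIP than in input and 2 lower. Over all genes the shares were 17.5% and 28.8%. In WT 0 of 5 were higher and 1 lower, where 18.6% and 37% of genes were.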
